A study of Mus musculus with 12 samples.

Results

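OCT4 and YY1 were followed at the X-linked genes of the cohesin complex and of chromatin regulation, Stag2, Smc1a, Hdac8, Atrx, Suv39h1, Phf8, Rbbp7, Bcorl1 and Huwe1. Every X-linked peak with an allelic value that lay in the RefSeq gene body or within 20 kb of it was taken, whatever its value. This gave 14 of 1006 OCT4 peaks and 6 of 211 YY1 peaks, 20 in all, at 8 of the 9 genes. No peak of either table lay at Bcorl1, and the consensus list of OCT4 peaks over all libraries had none there either. The cells were iXist-ChrX-Cast, a single female line of mouse embryonic stem cells (mESCs) from a Dom/129S x Cast cross, and chromatin immunoprecipitation with sequencing (ChIP-seq) was performed with an antibody to each factor. The day 6 cells had received 1 µg/ml doxycycline, which drives Xist from a TetOn promoter on the castaneus X chromosome, and the day 0 cells had received none. Both days carried the same inducible allele, and the cells were not differentiated. Each factor had 2 libraries per day, 8 of the 12 in the series, and the other 4 were inputs with no allelic values. Labels of the YY1 day 0 libraries name no antibody, so their factor is the one in their titles.

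The value of each peak is its allelic ratio, the fraction of allele-assigned fragments that came from the X chromosome under Xist control (Xi) out of those from Xi and the active X (Xa). A ratio of 0.5 means equal occupancy and 0 means none on Xi, and a ratio carries no information on total occupancy. Fragment numbers are not part of the tables, so the exact depth behind each ratio is unknown and no counting interval is given. Some ratios match fractions of small whole numbers, such as 0.117647 and 0.030303 at day 6 at the OCT4 peak of Hdac8. Few fragments may lie behind such ratios, and this counting noise was not modelled. Days were compared at each peak with limma, a linear model with a spread estimate shared across peaks, fitted to all peaks of one factor with Benjamini-Hochberg adjustment and a threshold of 0.05. Whether replicates came from separate cultures is not stated, and the p-values measure only the spread between these libraries, which may be technical. Consensus OCT4 peaks were present within 20 kb of all 6 stem cell genes examined (Pou5f1, Nanog, Sox2, Esrrb, Klf4 and Tfcp2l1, 4 to 26 peaks each). They were fewer at 4 fibroblast genes (1 to 3 each), the feeder cells of these cultures being fibroblasts. The counts were not adjusted for gene length and do not measure how much feeder chromatin was present.

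Cohesin is a ring of proteins that holds sister chromatids together and extrudes chromatin loops. SMC1A is one of its ATPase arms, STAG2 binds the ring and helps it onto chromatin, and HDAC8 removes acetyl groups from another arm so that cohesin can be reused. Most of the other genes encode factors that write, erase, read or move chromatin. ATRX is a remodeller that works with DAXX to deposit a histone variant at repeats, SUV39H1 deposits the trimethyl mark of constitutive heterochromatin, PHF8 removes lower methylation states of histones, mainly at active promoters, RBBP7 is a histone-binding subunit of several repressive complexes, BCORL1 is a corepressor related to BCOR, and HUWE1 is a large ubiquitin ligase. OCT4 is a pluripotency factor that mostly occupies enhancers, and YY1 is a zinc finger factor found at many promoters of genes active in all cells.

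The YY1 peaks of these genes each held a match to the core of the YY1 motif. The matches are printed because 5 of the 6 YY1 peaks lay at the start of one of the listed genes. Each line has 30 bases of the RefSeq reference sequence (GRCm38.p6, the assembly of mm10), read 5′ to 3′ on the strand given, and the capitals mark a match to the YY1 core AANATGGC, searched on both strands.
Stag2 promoter, chrX:42149684-42149713, plus strand: aggtaagttatAAAATGGCggaggcgaagc
Upstream of Smc1a, in the Hsd17b10 promoter, chrX:152001894-152001923, plus strand: gaggcttgtgcAAGATGGCtgcggcagttc
Atrx promoter, chrX:105929321-105929350, minus strand: ctcggcccaacAAAATGGCgtcggcatagg
Suv39h1 promoter, chrX:8074547-8074576, minus strand: agctgtggagaAAGATGGCggaaaatttaa
Phf8 promoter, upstream site, chrX:151520503-151520532, plus strand: ccgcctcgcctAAGATGGCggctcctccgc
Phf8 promoter, downstream site, chrX:151520676-151520705, plus strand: ccgagcctcgtAAGATGGCggcgggctcgt
Huwe1 promoter, chrX:151803663-151803692, plus strand: ggccgcctgttAAGATGGCggcggcggcgg
All 6 YY1 peaks held the core, which 162 of all 211 YY1 peaks (76.8%) and 7.28% of RefSeq promoter windows of 300 bases on the X also held. The windows are unlike in length, since the median width was 570.5 bp for the 6 peaks and 479 bp for all 211. A longer window has more room for a match. In transcription direction the core lay 401 bp after the annotated gene start at Stag2, 37 bp after it at Atrx and 199 bp after it at Suv39h1. At Phf8 the 2 cores lay at -124 bp and 49 bp from the start. The Huwe1 core lay 395 bp after the start of a curated RefSeq transcript, which is itself inside the longest annotated gene span.

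The octamer element of OCT4, searched on both strands as ATGCAAAT or ATGCTAAT, was found in 1 of the 14 OCT4 peaks and in 203 of all 1006 (20.2%). That peak, in the Atrx intron 6.2 kb from the gene start, held 2 copies, which are shown because this was also the OCT4 peak with the highest ratio of the 14 on both days.
Atrx intron, chrX:105923011-105923040, plus strand: tggtccaaggtATGCTAATcataaaacaga
Atrx intron, chrX:105923116-105923145, plus strand: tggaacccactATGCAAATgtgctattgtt
A match or its absence concerns only these letters in these windows. Over the X the median OCT4 change was -0.153 at the 203 peaks with an octamer and -0.149 at the 803 without one. Their median day 6 ratios were 0.325 and 0.342, and a link between octamer and ratio was not tested. The YY1 core also occurred in 4 of the 14 OCT4 peaks (105 of all 1006, 10.4%), among them the Rbbp7 promoter peak, where the YY1 table had no row. The others lay at the Phf8 and Hsd17b10 promoters and downstream of Suv39h1. Over the X, 36 of 180 OCT4 peaks within 500 bp of any gene start (20.0%) held the core. The 14 peaks were also wider, with a median of 678.5 bp against 491.5 bp for all 1006.

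The mean Xi share was lower at day 6 than at day 0 at all 20 peaks (92.8% of all OCT4 peaks and 89.6% of all YY1 peaks), and the fall passed the test at 8 of the 20. For OCT4, 4 of 14 peaks fell and 0 rose, against 35.0% of all 1006 OCT4 peaks that fell, and the median change in ratio (day 6 minus day 0) was -0.146, against -0.149 over all OCT4 peaks. For YY1, 4 of 6 peaks fell and 0 rose, against 42.2% of all 211 YY1 peaks that fell, with a median change of -0.170, against -0.0987 over all YY1 peaks. At an unadjusted limma p under 0.05 the peaks that fell numbered 6 of 14 for OCT4 (50.1% of all OCT4 peaks) and 6 of 6 for YY1 (55.5% of all YY1 peaks). Both day 6 ratios lay under both day 0 ratios at 9 of 14 OCT4 peaks (73.0% of all OCT4 peaks) and at 6 of 6 YY1 peaks (72.0% of all YY1 peaks). The OCT4 share was near its background, and with 6 YY1 peaks nothing is claimed from the larger YY1 share. With 2 libraries per day the smallest two-sided p of an exact permutation test is 0.333, so single peaks were tested only through limma. The counts were lowest when a day 0 library was left out. Such a fit takes its spread only from the 2 day 6 libraries, so this does not show that the day 0 values mattered more. In limma with adjustment 0 of 14 OCT4 peaks fell without day 0 replicate 1 (unadjusted, 4) and 0 of 14 without day 0 replicate 2 (unadjusted, 5). Of the 6 YY1 peaks 1 fell without day 0 replicate 1 (unadjusted, 4) and 0 without day 0 replicate 2 (unadjusted, 4).

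**Figure D1:**
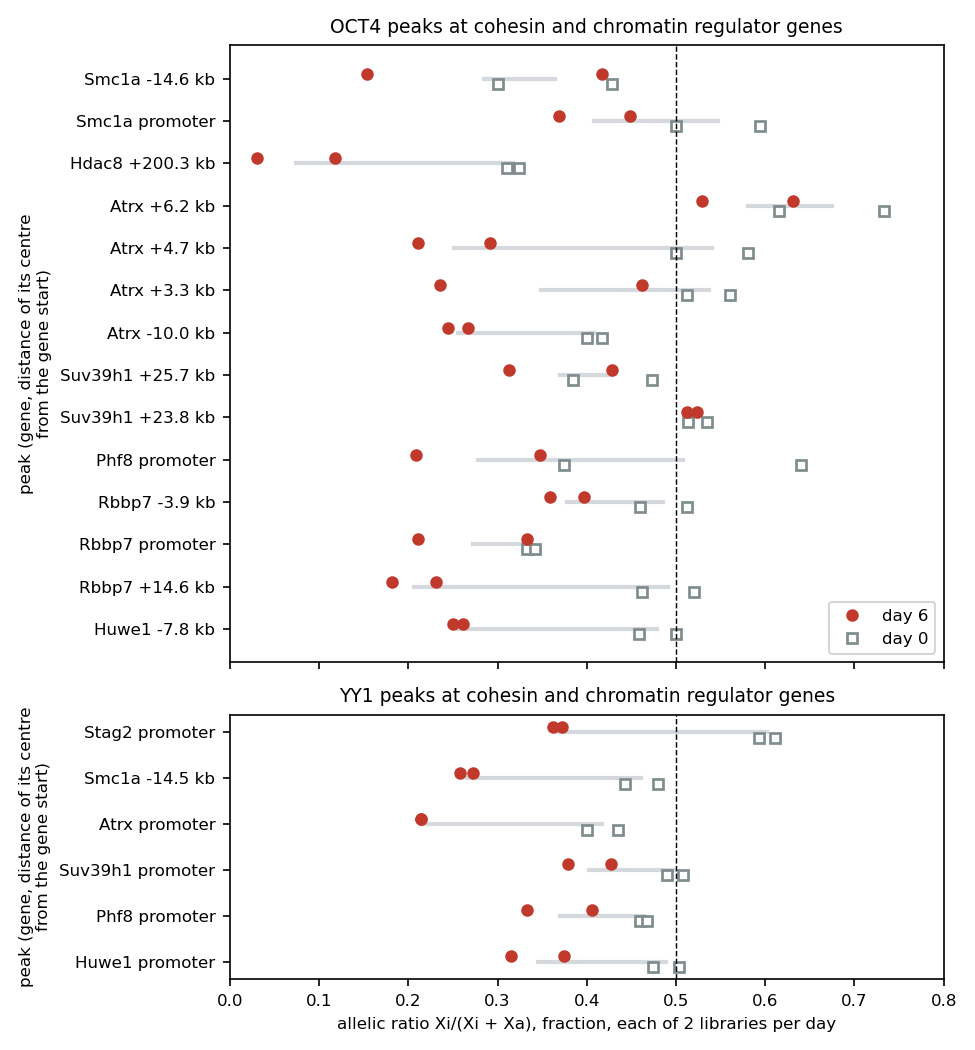
Allelic ratio Xi/(Xi + Xa) (horizontal axis, fraction) of the 14 OCT4 peaks and 6 YY1 peaks in each library. Filled red circles are the 2 day 6 libraries, open grey squares the 2 day 0 libraries, grey bars join the means of the days and the dashed line marks 0.5. Row labels give the gene and either its promoter or the distance of the peak centre from the gene start in transcription direction. The days do not overlap at any YY1 peak, and they overlap or touch at 5 OCT4 peaks.

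Stag2 had 1 peak with a ratio, a YY1 peak at its promoter, which fell. At the Stag2 promoter (42149519 to 42150468, 5′ UTR and intron) the YY1 ratio was 0.373 and 0.362 at day 6, against 0.593 and 0.611 at day 0. The days lay far apart, with replicates within 0.0179 of each other on either day. The change was -0.235 ± 0.0314 (SE, n = 2 per day, limma adjusted p = 0.00940), the deepest of the 6 YY1 peaks, and rank 21 of 211 over the X. The call held without any of the other 3 libraries and was lost without day 0 replicate 2 (limma adjusted p = 0.0532). No allelic OCT4 value was to be had at Stag2, since both consensus OCT4 peaks there, in the gene body with centres 5.9 and 10.6 kb from its start, were not in the allelic table.

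Smc1a had 2 OCT4 peaks and 1 YY1 peak. The YY1 peak was centred at -14.5 kb (152001761 to 152002108), over the start of the neighbouring gene Hsd17b10, which encodes a mitochondrial dehydrogenase, so it is distal to Smc1a but a promoter peak of its neighbour. Its YY1 ratio was 0.258 and 0.273 at day 6, against 0.443 and 0.479 at day 0, with no overlap between days. The change at this site was -0.196 ± 0.0330 (SE, n = 2 per day, limma adjusted p = 0.0118). The call was lost without day 0 replicate 1 (limma adjusted p = 0.0517) and without day 0 replicate 2 (limma adjusted p = 0.0645). OCT4 at the same site (152001497 to 152002211) had ratios of 0.154 and 0.417 at day 6, against 0.429 and 0.30 at day 0. These libraries did not separate by day, since the day 6 ratio of 0.417 lay between the day 0 ratios. The fitted change did not pass (limma adjusted p = 0.508, 95% interval of the change -0.298 to 0.140). Without day 6 replicate 1 its direction turned (0.0524). The OCT4 peak over the start of Smc1a itself (152016168 to 152016985), which also covers the start of the divergent gene Ribc1, had 0.368 and 0.448 at day 6, against 0.594 and 0.500 at day 0 (limma adjusted p = 0.112). Here every day 6 value was under every day 0 value, but replicates of one day differed by up to 0.0938.

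Hdac8 was the gene closest to Xist of the 9 (0.978 Mb from its nearer end), and Atrx was the next (2.31 Mb). Of the 14 OCT4 peaks, that of Hdac8 had the lowest mean ratio at day 6 and 1 of those of Atrx the highest (0.580). A relation to distance was not tested. The 1 peak of Hdac8 (102304917 to 102305239) lay in an intron 200.3 kb from the gene start, towards the 3′ end of the gene. It was within an intron of the uncharacterised gene Gm32262 as well. The OCT4 ratio was 0.118 and 0.0303 at day 6, against 0.310 and 0.324 at day 0. Both day 6 values were far under both day 0 values, and the mean day 6 ratio of 0.0740 was rank 11 of 1006 from the bottom. Its starting ratio was already lower than the others, the lowest day 0 mean of the 20 peaks. The change was -0.243 ± 0.0577 (SE, n = 2 per day, limma adjusted p = 0.0242). The peak kept 23.3% of its day 0 ratio, against a median of 68.6% over all OCT4 peaks. The call was lost without day 0 replicate 1, day 0 replicate 2 or day 6 replicate 2 (limma adjusted p = 0.0870, 0.0984 and 0.0556). No YY1 peak with a ratio lay at Hdac8.

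Atrx had the most peaks, with 4 for OCT4 and 1 for YY1 at its promoter. The YY1 promoter peak (105928973 to 105929537, 5′ UTR, coding exon and intron) had a ratio of 0.214 in both day 6 libraries, against 0.435 and 0.400 at day 0. Equal day 6 values can arise from low fragment numbers and are no measure of precision. The fitted difference there was -0.203 ± 0.0325 (SE, n = 2 per day, limma adjusted p = 0.0102). Of the 6 YY1 peaks it had the lowest day 6 ratio. The call was lost without day 0 replicate 1 (limma adjusted p = 0.0550) or day 0 replicate 2 (limma adjusted p = 0.0532).

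The OCT4 peaks of Atrx were 3 intronic ones centred 3.3, 4.7 and 6.2 kb from the start and 1 upstream. At 4.7 kb (105924304 to 105925116) the ratio was 0.292 and 0.211 at day 6, against 0.500 and 0.581 at day 0, and the change of -0.290 ± 0.0608 (SE, n = 2 per day, limma adjusted p = 0.0191) was the deepest of the 14 OCT4 peaks. This call was lost without day 0 replicate 1 or day 0 replicate 2 (limma adjusted p = 0.0651 and 0.0865). The next peak into the gene, with the 2 octamers (105922844 to 105923485), had 0.529 and 0.632 at day 6, against 0.615 and 0.733 at day 0. It favoured Xi on both days in both replicates, the days overlapped, and the change of -0.0939 did not pass (limma adjusted p = 0.277, 95% interval -0.251 to 0.0633). It kept 86.1% of its day 0 ratio, against 46.4% at its neighbour, a difference that was not tested.

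The peak nearest to the Atrx promoter (105925838 to 105926223) had 0.462 and 0.235 at day 6, against 0.513 and 0.561 at day 0 (limma adjusted p = 0.101). Its day 6 replicates were 0.226 apart, and without day 6 replicate 1 the peak passed (-0.302, limma adjusted p = 0.0206). The upstream peak at -10.0 kb (105939134 to 105939614) had 0.244 and 0.267 at day 6, against 0.417 and 0.400 at day 0, with no overlap between days, and the change did not pass (-0.153 ± 0.0533, SE, limma adjusted p = 0.0585). Over the 4 peaks the mean OCT4 ratio was 0.382 and 0.336 in the day 6 libraries, against 0.511 and 0.569 in the day 0 libraries.

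Suv39h1 had the smallest OCT4 changes of the 14 peaks. Of its OCT4 peaks, both downstream of the gene, the one nearer to it (8050366 to 8051652) had 0.524 and 0.513 at day 6, against 0.514 and 0.535 at day 0. All 4 libraries lay close to equal occupancy, the days overlapped, and the change was -0.00613 (limma adjusted p = 0.931, 95% interval -0.131 to 0.119). The farther one (8048768 to 8049323) had 0.429 and 0.313 at day 6, against 0.385 and 0.473 at day 0, with overlapping days (limma adjusted p = 0.486, 95% interval -0.211 to 0.0952). At the promoter YY1 (8074151 to 8074726) had 0.379 and 0.427 at day 6, against 0.508 and 0.490 at day 0. YY1 days did not overlap there, but the change of -0.0965 ± 0.0343 (SE) did not pass (limma adjusted p = 0.0667).

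At the Phf8 promoter both factors were measured over nearly the same DNA, an overlap of 765 bp. OCT4 (151520305 to 151521214) had 0.348 and 0.208 at day 6, against 0.640 and 0.375 at day 0, and its day 0 replicates were farther apart (0.265) than the means of the days. YY1 (151520244 to 151521069) had 0.333 and 0.406 at day 6, against 0.460 and 0.468 at day 0, with close day 0 replicates. Neither change passed (OCT4 -0.229 ± 0.0948, limma adjusted p = 0.0918; YY1 -0.0939 ± 0.0377, limma adjusted p = 0.0867; SE), although both day 6 ratios lay under both day 0 ratios for each factor. This was the YY1 peak with the smallest change of the 6.

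Rbbp7 had OCT4 peaks before, over and inside the gene, and none for YY1 with a ratio. The intronic peak 14.6 kb from the start (162774844 to 162775095) had 0.182 and 0.231 at day 6, against 0.520 and 0.462 at day 0. The days were widely separated and the peak fell, with a change of -0.284 ± 0.0565 (SE, n = 2 per day, limma adjusted p = 0.0176), a call lost without day 0 replicate 1 or day 0 replicate 2 (limma adjusted p = 0.0764 and 0.0607). The promoter peak (162759342 to 162760946) had 0.333 and 0.211 at day 6, against 0.333 and 0.341 at day 0. The higher day 6 ratio thus equalled the lower day 0 ratio, and the change did not pass (limma adjusted p = 0.407, 95% interval of the change -0.211 to 0.0801). The peak centred at -3.9 kb (162755804 to 162757135) had 0.397 and 0.359 at day 6, against 0.512 and 0.459 at day 0 (-0.108 ± 0.0555, SE, limma adjusted p = 0.149).

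Huwe1 fell for both factors. The YY1 peak (151803475 to 151803973, 5′ UTR and intron), 193 bp after the start of that curated transcript, had 0.374 and 0.315 at day 6, against 0.474 and 0.504 at day 0. Its change was -0.144 ± 0.0364 (SE, n = 2 per day, limma adjusted p = 0.0257). The call did not survive the removal of any of the 4 libraries, while the change stayed between -0.173 and -0.115. OCT4 was measured at -7.8 kb from the gene start (151792707 to 151793278), where the ratio was 0.261 and 0.250 at day 6, against 0.500 and 0.458 at day 0. The OCT4 change was -0.224 ± 0.0540 (SE, n = 2 per day, limma adjusted p = 0.0252). It no longer passed without day 0 replicate 1 or day 0 replicate 2 (limma adjusted p = 0.115 and 0.0837).

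**Figure D2:**
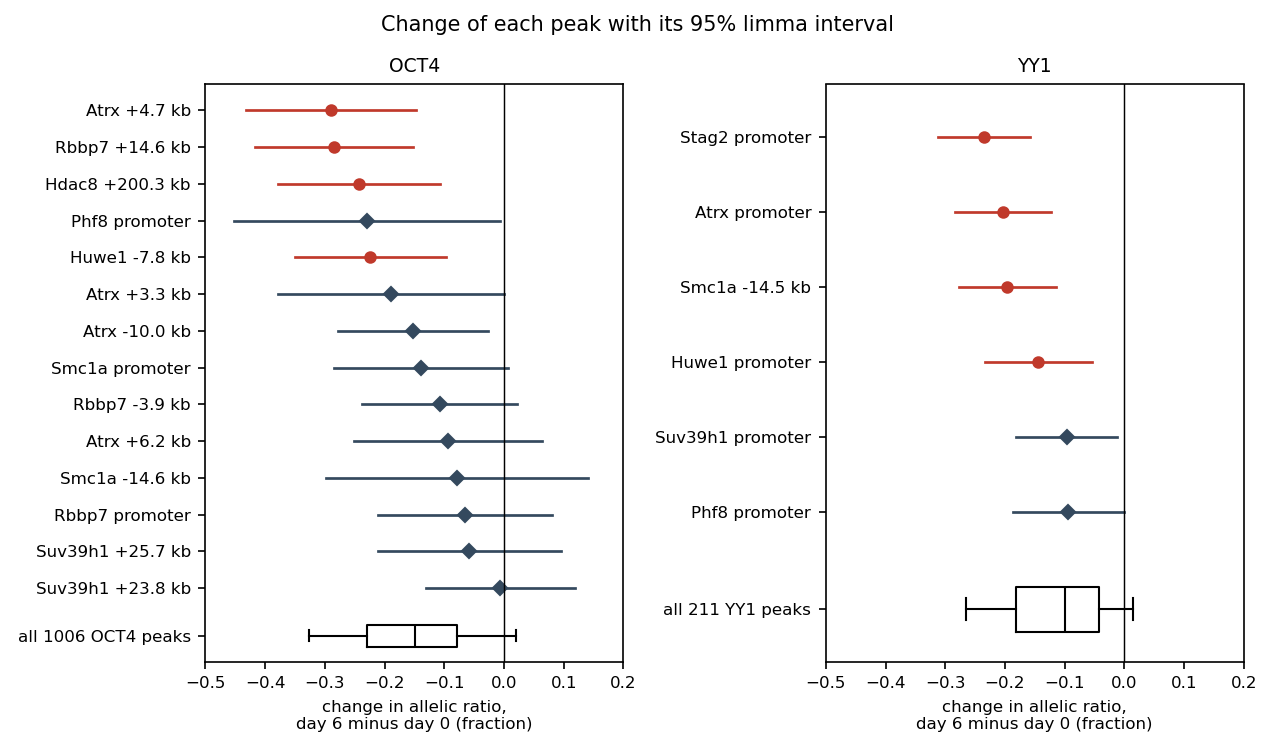
Difference between the days in allelic ratio (horizontal axis, day 6 minus day 0, fraction) of each peak with its 95% limma interval, OCT4 left and YY1 right, ordered by change. Red circles passed at an adjusted p of 0.05, dark diamonds did not, and the box at the foot of each panel shows all peaks of that factor (median and quartiles, whiskers at the 5th and 95th percentiles). The 4 OCT4 peaks that fell changed by -0.290 to -0.224, and the 4 YY1 peaks that fell by -0.235 to -0.144.

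Promoter and distal peaks were not equally represented in the tables. Own-promoter peaks, those within 500 bp of a RefSeq start of the listed gene, made up 5 of the 6 YY1 peaks and 3 of the 14 OCT4 peaks. Over the whole X, peaks were classed by the nearest start of any gene instead, so the backgrounds are not of the same definition. Both peaks over the Hsd17b10 start, for example, are distal to Smc1a but count as promoter peaks over the X. Of the YY1 promoter peaks 3 of 5 fell, with a median change of -0.144, and over the X 37 of 81 YY1 promoter peaks (45.7%) fell, with a median of -0.131. None of the 3 OCT4 promoter peaks, at Smc1a, Phf8 and Rbbp7, passed limma with adjustment (1 of 3 without it). Their median change was -0.139, and over the X 36 of 180 OCT4 promoter peaks (20.0%) fell, with a median of -0.111. All 4 OCT4 calls were distal, 4 of 11, with a median change of -0.153, and over the X 316 of 826 distal OCT4 peaks (38.3%) fell, with a median of -0.160. The difference between promoter and distal peaks was not tested within so few peaks.

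**Figure D3:**
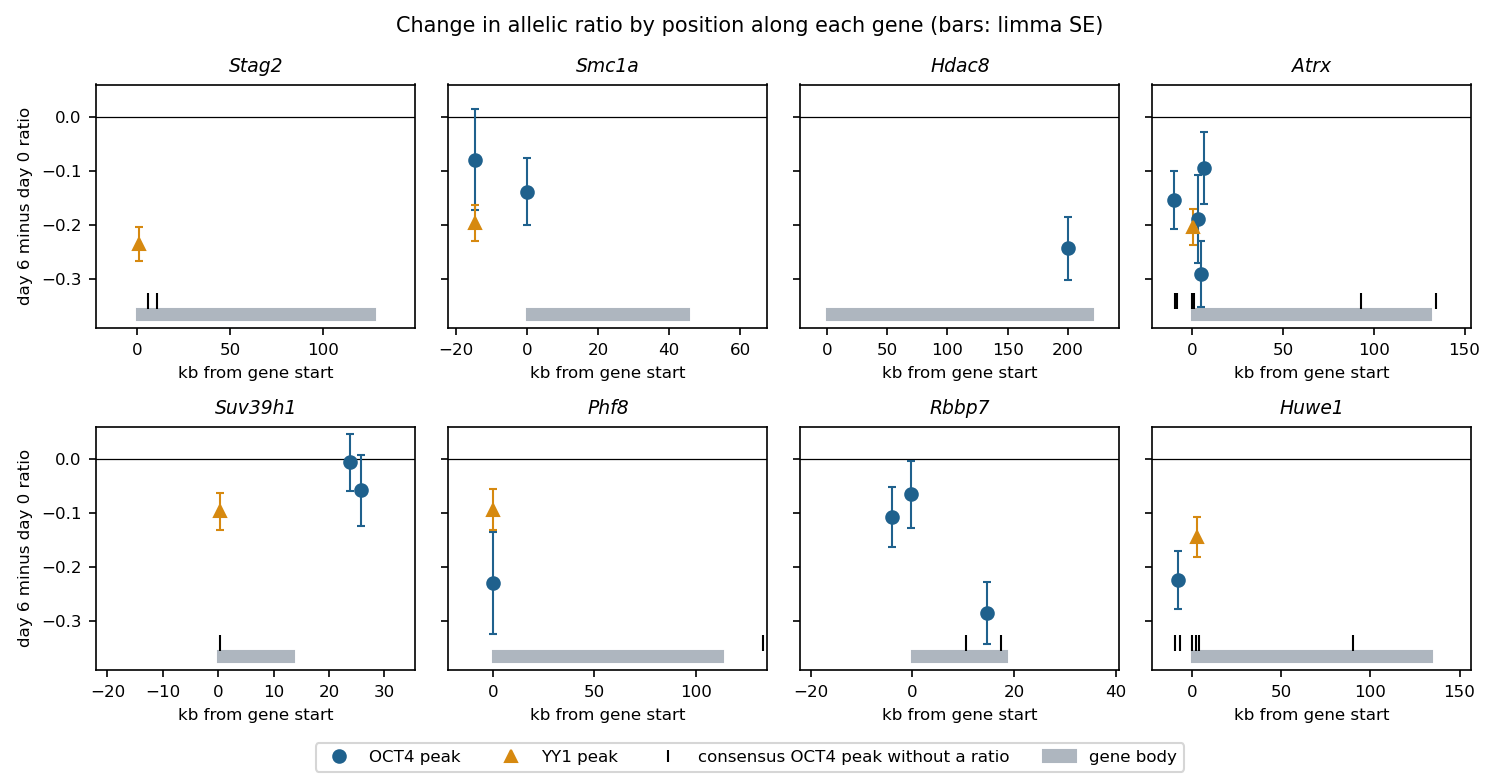
Change in allelic ratio (vertical axis, day 6 minus day 0, fraction) against the distance of the peak centre from the gene start in kb, in transcription direction, for the 8 genes with a peak. Blue circles are OCT4 and orange triangles YY1, each with its limma SE, black ticks are consensus OCT4 peaks without an allelic ratio and the grey bar is the gene body. YY1 peaks sit at gene starts except upstream of Smc1a, and the OCT4 peaks that fell lie inside Hdac8, Atrx and Rbbp7 and upstream of Huwe1.

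The factors could be compared over the same DNA at 2 sites, out of 69 overlapping pairs of an OCT4 and a YY1 peak on the X. The paper reports that chromatin for both factors came from the same extracts. The fit had no term for extracts and treated the libraries as independent. Its SE, intervals and p-values thus leave out any such link. At the Phf8 promoter the YY1 change minus the OCT4 change was 0.136 ± 0.123 (SE, limma adjusted p = 0.689, 95% interval -0.147 to 0.418). At the Hsd17b10 promoter upstream of Smc1a it was -0.117 ± 0.119 (SE, limma adjusted p = 0.689, 95% interval -0.390 to 0.156). The sites thus differed in which factor had the larger loss, neither difference passed, and the intervals leave room for differences larger than either change in YY1. Over all 69 pairs limma called 0 (0.00%), with 6 at an unadjusted p under 0.05 (8.70%), and without OCT4 day 6 replicate 1 it called 2 (12 unadjusted). Without OCT4 day 6 replicate 2 the direction at the Hsd17b10 promoter turned (0.0148). The OCT4 ratios were also the more variable at these genes. The median gap between replicates of the 14 OCT4 peaks was 0.0842 at day 6 and 0.0558 at day 0, against 0.0313 at day 6 and 0.0238 at day 0 for the 6 YY1 peaks, and over the whole X the gaps were 0.0677 at day 6 and 0.0585 at day 0 for OCT4 and 0.0379 at day 6 and 0.0413 at day 0 for YY1.

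The allelic table covered only part of the OCT4 sites at these genes. Of 32 consensus OCT4 peaks in the same windows 14 had ratios, and the 18 others were spread over Atrx and Huwe1 (6 each), Stag2 and Rbbp7 (2 each) and Suv39h1 and Phf8 (1 each). No input peak lay in any window. Consensus OCT4 peaks overlapped 5 of the 6 YY1 peaks, all but that of Stag2, against 108 of all 211 YY1 peaks (51.2%). At Atrx, Suv39h1 and Huwe1 the promoter thus lay in a consensus OCT4 peak whose ratio is not in the table, so OCT4 and YY1 could not be compared there.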

How the data were processed

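The authors aligned reads with Bowtie2 2.3.5.1 to mm10 masked at strain-specific positions, removed duplicates with Picard, sorted reads by parental genome with SNPsplit, called peaks per library with MACS2, built a consensus over libraries, removed input peaks and counted fragments with featureCounts. They kept peaks with enough allele-assigned fragments and a biallelic day 0 ratio, and the deposited allelic ratios are fractions. Such filters remove peaks with few strain-specific positions or a strong day 0 bias, which limits which sites of a gene are seen. Mean day 0 ratios ran from 0.204 to 0.795 in the OCT4 table and from 0.145 to 0.828 in the YY1 table, although the methods give 1 set of criteria for both factors. Versions come from the submitters' processing notes. The deposited peak lists have a score of 0 in every row, so only positions were used. The methods describe a YY1 consensus from endogenous YY1 libraries of both allelic backgrounds of the line, a list not used here.

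Each allelic column was matched by its name to 1 library. Peaks overlapping a listed gene or within 20 kb of it in the RefSeq annotation of GRCm38.p6 were described, each with its 4 library values. The members, lists and tests were chosen with earlier results of these data known. A comparison with other X-linked chromatin genes is not reported here. limma 3.58.1 in R 4.3.3 was run per factor over all peaks (2 libraries against 2, two-sided, no replicate block, checked on simulated data), and over all overlapping pairs for the difference between factors. Coordinates are on the X chromosome of mm10 and count from 1. Python 3.11.15 was used for the rest. Alternatives were a replicate block, a logit scale (floor 0.01), a day 0 ratio of 0.3 to 0.7, a threshold of 0.01, another eBayes prior, other windows and overlaps, and leaving out each library.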

Additional observations from a re-analysis of the deposited data

How the results depend on the processing

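With 2 libraries per day, calls rested on few values, and they were lost most often when a day 0 library was left out. Leaving out 1 library leaves 1 on that day, and the spread then comes only from the 2 libraries of the other day. A lost call thus need not mean a changed estimate, and does not show which day mattered more. Over these removals the median change at the listed genes was -0.163 to -0.123 for OCT4 and -0.181 to -0.153 for YY1. Leaving out each library in turn gave 0 to 288 OCT4 peaks that fell over the X (352 with all libraries) and 0 to 51 YY1 peaks (89 with all), so the background shares moved as well. Among the peaks of the listed genes it gave 0 to 5 for OCT4 (4 with all) and 0 to 3 for YY1 (4 with all), and 0 to 2 of the 69 pairs (0 with all). At an adjusted threshold of 0.01 the peaks that fell numbered 0 for OCT4 and 16 for YY1 over the X, and 0 for OCT4 (6 of 14 at an unadjusted limma p under 0.05) and 1 for YY1 at the listed genes.

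The window changed the counts and the medians. For OCT4 3 of 8 peaks fell in the gene bodies alone, 3 of 9 within 5 kb and 11 of 28 within 50 kb, against 35.0% over the X. For YY1 3 of 5 fell in the gene bodies alone, 3 of 5 within 5 kb and 6 of 9 within 50 kb, against 42.2% over the X. Within 50 kb the YY1 median change was -0.196. The OCT4 median was -0.209 over the gene bodies alone (8 peaks) and -0.188 within 5 kb (9 peaks), against -0.146 within 20 kb. The YY1 median was -0.144 over the gene bodies alone and also within 5 kb (5 peaks each), against -0.170 within 20 kb.

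The direction turned in 3 values, none of which had passed. Leaving out each library gave -0.210 to 0.0524 for OCT4 upstream of Smc1a, -0.0165 to 0.00425 for OCT4 at the nearer downstream peak of Suv39h1, and -0.248 to 0.0148 for the YY1 minus OCT4 difference upstream of Smc1a. The cause was not tested. Replicate gaps were not correlated between days over peaks (-0.0217 for OCT4 and 0.0315 for YY1). This correlation cannot show a shift common to all peaks of a library, or a link between factors. Whether libraries with the same replicate number shared a culture or batch is thus not known. With the replicate block 274 OCT4 and 97 YY1 peaks fell over the X, and at the listed genes 5 OCT4 and 4 YY1 peaks, the OCT4 peak of the Phf8 promoter being added (limma adjusted p = 0.0441).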
